A study of Mus musculus with 6 samples.

Results

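The genes described here are the mouse orthologs of 10 genes on the long arm of human chromosome 5 that are lost together with TIFAB in myelodysplasia with del(5q): Rps14, Npm1, Hspa9, Csnk1a1, Apc, Ctnna1, Diaph1, Ppp2ca, Nr3c1 and Sparc. They were picked by name, by a rule that used none of their values, although earlier results of these data were known, and all 10 were found among the 22180 genes with a probe set of their own. Where a gene had several probe sets annotated to that symbol alone, the one with the highest mean over the 6 arrays stood for it.

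RNA came from LSK cells, the lineage-negative, Sca1-positive, cKit-positive fraction of bone marrow, in which blood stem cells and early progenitors are found. The 6 mice carried transplanted marrow that was either Tifab-/- (KO, 3 arrays) or Tifab+/+ (WT, 3 arrays), each hybridised to a GeneChip MoGene 2.0 ST array. Recipients in both groups were syngeneic Boy/J mice given 7.0 Gy and then 4.75 Gy of radiation 3 hours later, so irradiation and transplantation are common to KO and WT. The mice were 3 months old by the labels. The sort as labelled names no donor marker, so recipient cells cannot be told apart from donor cells. All values below are log2 probe set signals as deposited, differences are KO-labelled minus WT-labelled arrays, and p-values come from limma fitted across all 22180 genes.

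Deletion of 5q is a recurrent chromosome loss in myelodysplastic syndromes, and it removes a single copy of many neighbouring genes at once. Several of them have been studied as genes whose reduced dose by itself alters blood formation: RPS14 through impaired assembly of the small ribosomal subunit and p53 activation in erythroid cells, CSNK1A1 and APC through beta-catenin, and TIFAB through the TRAF6 signalling pathway that the title of the series names. The comparison asks whether loss of Tifab alone, with the other 5q orthologs left in place, goes along with a different transcript level of those other genes.

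The Tifab probe set read 5.21, 5.12 and 5.26 in KO-labelled arrays, against 4.99, 5.37 and 5.53 in WT-labelled arrays. The groups overlapped (log2 difference -0.10 ± 0.18, SE, adjusted p = 0.885), and it is unknown here whether its probes fall inside the deletion. It therefore checks nothing about the genotypes, and the groups are called KO-labelled and WT-labelled. Each array's mean correlation with the others, taken across genes, was 0.976 to 0.982. Over 8 measured LSK markers the mean level was 8.21 to 8.26 in KO-labelled and 8.13 to 8.21 in WT-labelled arrays, with Kit and Cd34 bright on all of them. The 1 call in that list (12.5%, against 10.3% of all genes) was Meis1, higher by 0.39 without overlap. Flt3 had -0.24, while Ly6a, which encodes Sca1, was not analysed here. Transcripts of other cells were also present and differed between arrays. Over B and plasma cell markers the mean was 6.89 to 7.18 in KO-labelled and 6.42 to 7.35 in WT-labelled arrays, with Jchain between 8.42 in WT replicate 1 and 10.39 in WT replicate 3. Over 8 neutrophil markers it was 7.90 to 8.37 in KO-labelled and 7.91 to 8.42 in WT-labelled arrays. Of these, 3 were higher and 5 lower, with a median difference of -0.03. The 1 call (12.5%, against 10.3% of all genes) was Mmp8, at a log2 difference of -0.85 without overlap, while Camp had 0.33. No gene passed an adjusted p of 0.05 in limma (0 of 22180, lowest 0.186), while 2274 genes, 10.3% of those tested, had an unadjusted p under 0.05, with 4.74% higher and 5.51% lower in KO-labelled arrays.

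None of the 10 orthologs differed between the genotype labels by the test. Adjusted p-values lay between 0.552 and 0.947, 0 of 10 had an unadjusted p under 0.05 against 10.3% of all genes, and for 0 of 10 did the groups fail to overlap, against 16.1% of all genes (7.75% higher and 8.37% lower). The estimates were small: 8 orthologs had a lower mean in KO-labelled arrays and 2 a higher one, with a median log2 difference of -0.09 against 0.00 over all genes. The 95% interval of every one of the 10 differences included 0 and ended above -1, the log2 difference that loss of 1 of 2 copies would give if transcript level followed copy number. For 8 of the 10 the interval also stayed within 1.5-fold in either direction, and the exceptions were Rps14 and Ppp2ca. The share of all genes whose intervals meet these bounds was not counted, so neither count sets the orthologs apart from other genes. A p that misses the threshold does not show equal levels, and array signals understate the fold change of dim genes, so these intervals are bounds on the probe set signal.

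**Figure D1:**
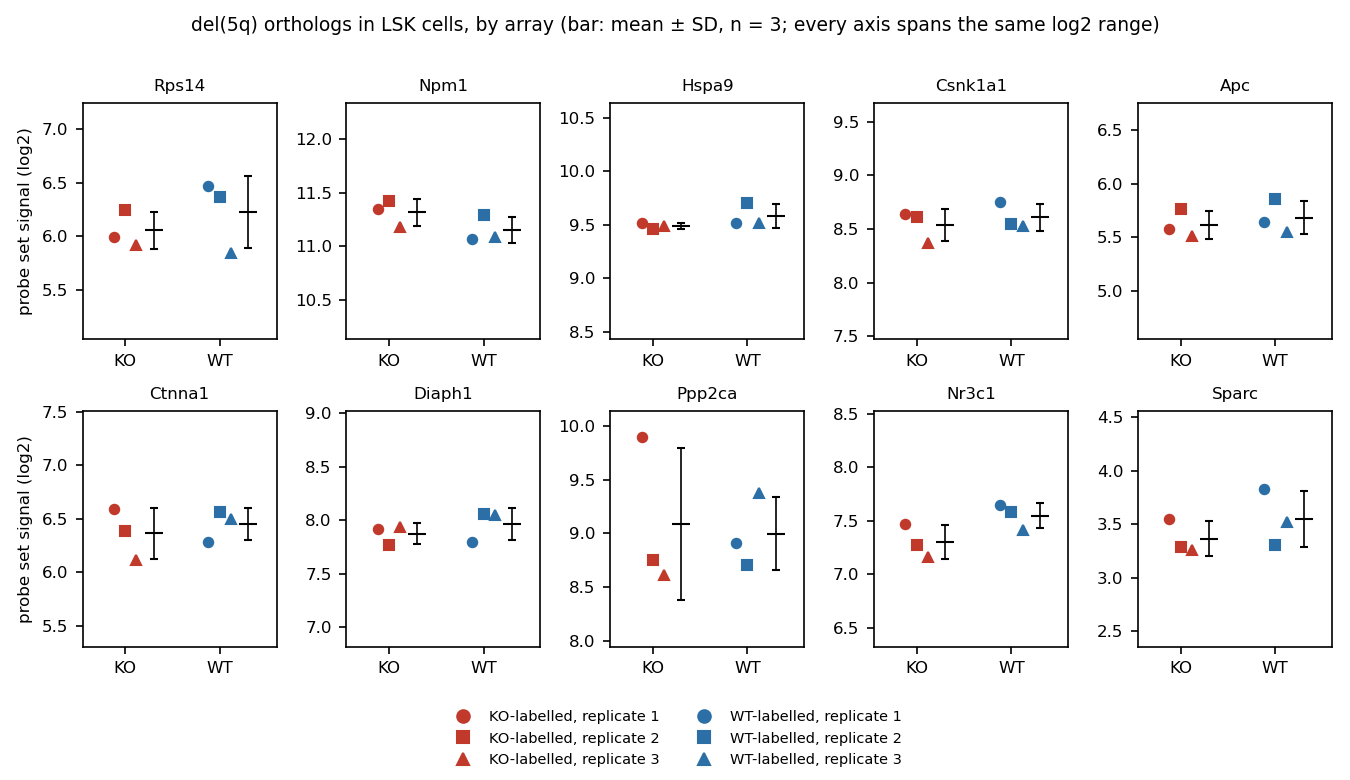
Probe set signal (log2) of the 10 orthologs on each of the 3 KO-labelled (left) and 3 WT-labelled (right) arrays, with group mean and SD and an equal log2 span on every axis. The groups overlap for all 10 genes, and Ppp2ca shows the widest spread, with 1 KO-labelled array at 9.90.

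**Figure D2:**
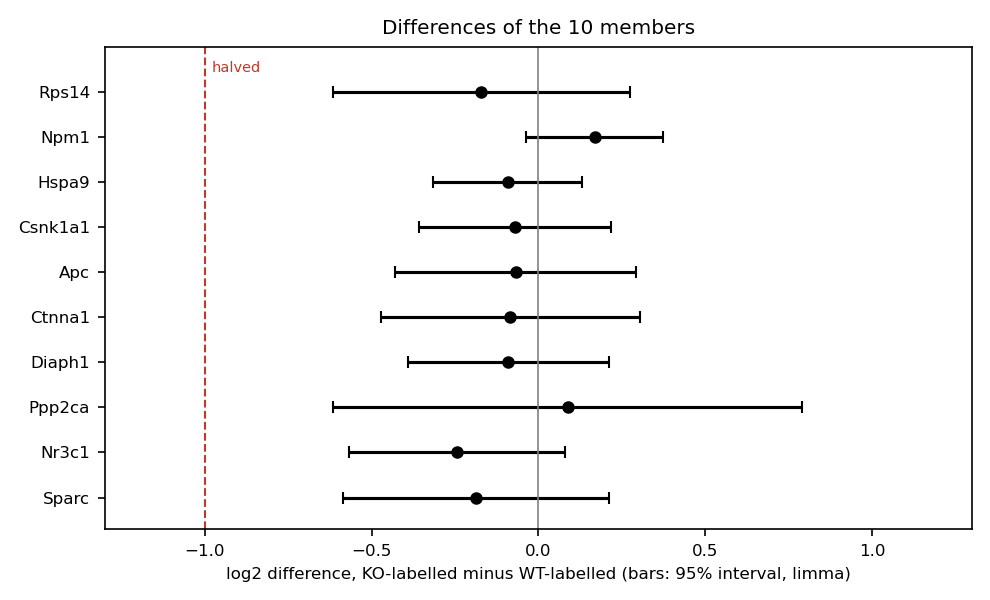
Log2 difference, KO-labelled minus WT-labelled, of each ortholog with its 95% interval from limma. All 10 intervals cross 0 (solid line) and none reaches -1 (dashed line).

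Rps14, a protein of the small ribosomal subunit, read 5.997, 6.25 and 5.92 in KO-labelled arrays, against 6.47, 6.36 and 5.84 in WT-labelled arrays. WT replicate 3 held the lowest of the 6 values and WT replicates 1 and 2 the highest, so the KO values lay inside the WT range. Its mean was 6.06 ± 0.17 in KO-labelled and 6.23 ± 0.34 in WT-labelled arrays (SD, n = 3 each). That is far below the other small-subunit proteins, whose median was 10.94 to 10.99 in KO-labelled and 10.78 to 10.85 in WT-labelled arrays. How closely this probe set follows the Rps14 transcript was not tested. The difference of -0.17 (95% interval -0.62 to 0.27) puts the KO-labelled signal of the probe set at 88.8% of WT, with bounds of 65.2% and 121%. This estimate leaned on single arrays: it was -0.05 without WT replicate 1 and -0.36 without WT replicate 3. Among the other small-subunit proteins, 17 of 23 measured had a higher mean in KO-labelled arrays and 6 a lower one, with a median of 0.07. At an unadjusted p under 0.05, 4 of them were higher and 0 lower, against 4.74% and 5.51% of all genes. Rps13 read 11.04, 10.94 and 11.21 in KO-labelled arrays, against 10.37, 10.15 and 10.70 in WT-labelled arrays (log2 difference 0.66 ± 0.13, SE, adjusted p = 0.297). Rps24 had 0.23 ± 0.08 (SE), or 0.14 after cyclic loess, and its other probe sets gave 0.01 and 0.48. Rps3a1 had 0.29 ± 0.08 (SE), although a second Rps3a1 probe set gave -0.46. The list median came down to 0.01 after cyclic loess, a scaling that evens out differences along the signal range. Genes that build the small subunit gave 10 higher and 4 lower of 14, with 0 at an unadjusted p under 0.05. The methyltransferase genes Emg1 and Dimt1 had 0.25 ± 0.12 and 0.31 ± 0.17 (SE), or 0.17 and 0.18 without KO replicate 2. Rrp7a had -0.66 ± 0.40 (SE), with WT replicate 1 at 8.72 against 6.83 and 7.22 in the other WT-labelled arrays, and -0.10 without it. A second Rrp7a probe set went the other way, at 0.97.

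Npm1 encodes nucleophosmin, an abundant nucleolar chaperone that takes part in ribosome assembly and holds the p53 regulator ARF in the nucleolus. It read 11.35, 11.43 and 11.18 in KO-labelled arrays, against 11.07, 11.29 and 11.09 in WT-labelled arrays. KO replicates 1 and 2 lay above all WT values, while KO replicate 3 fell below WT replicate 2. The means were 11.32 ± 0.13 in KO-labelled and 11.15 ± 0.12 in WT-labelled arrays (SD, n = 3 each), a difference of 0.17 ± 0.09 (SE, 95% interval -0.04 to 0.37) or 112% of the WT-labelled level. Its unadjusted p of 0.0963 in limma was the lowest of the 10 orthologs. A second, dimmer Npm1 probe set gave the same order of arrays, at 6.76, 6.88 and 6.56 in KO-labelled arrays against 6.40, 6.69 and 6.41 in WT-labelled arrays, a difference of 0.23 ± 0.16 (SE). Leaving out KO replicate 3 or WT replicate 2 separated the groups and brought the unadjusted p under 0.05, with a difference of up to 0.24, but the estimate was 0.08 after cyclic loess. Of 11 nucleolar partners measured, 7 had a higher and 4 a lower mean in KO-labelled arrays. The 1 call at an unadjusted p under 0.05 (9.09%, against 10.3% of all genes) was Ncl. Ncl, which encodes nucleolin, read 10.74, 10.62 and 10.65 in KO-labelled arrays, against 10.52, 10.38 and 10.52 in WT-labelled arrays, without overlap (0.19 ± 0.08, SE, unadjusted p = 0.0401, adjusted p = 0.471), or 0.115 after cyclic loess. Cdkn2a, whose locus encodes ARF, had 0.33 ± 0.21 (SE), or 0.13 without WT replicate 1, and Ubtf, a transcription factor of ribosomal DNA, 0.21 ± 0.14 (SE), or 0.13 without KO replicate 2.

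Hspa9 encodes mortalin, the mitochondrial Hsp70 that draws proteins through the inner membrane and helps to fold them. It was tightly grouped, at 9.52, 9.46 and 9.49 in KO-labelled arrays against 9.51, 9.71 and 9.52 in WT-labelled arrays. Apart from WT replicate 2, all values lay between 9.46 and 9.52. The difference was -0.09 ± 0.10 (SE, 95% interval -0.31 to 0.13), or 93.8% of the WT-labelled level with bounds of 80.4% and 109%, and it was -0.03 without WT replicate 2. Of 14 measured mitochondrial chaperones and import components, 6 were higher, 8 lower and 0 reached an unadjusted p under 0.05. Hspe1, the co-chaperonin of Hsp60, read 9.86, 10.18 and 9.88 in KO-labelled arrays, against 9.64, 9.64 and 9.85 in WT-labelled arrays (0.26 ± 0.12, SE), or 0.16 without KO replicate 2. Grpel2, a nucleotide exchange factor for mortalin that is itself a 5q ortholog, had -0.45 ± 0.21 (SE).

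Csnk1a1 and Apc act together in the complex that marks beta-catenin for destruction: casein kinase 1 alpha places the priming phosphate and APC is part of the scaffold. Csnk1a1 read 8.64, 8.61 and 8.37 in KO-labelled arrays, against 8.75, 8.55 and 8.53 in WT-labelled arrays. Its difference of -0.07 ± 0.13 (SE, 95% interval -0.36 to 0.22) leaned on single arrays. It was 0.01 without KO replicate 3, and it also turned slightly positive without WT replicate 1. Apc read 5.57, 5.77 and 5.51 in KO-labelled arrays, against 5.65, 5.86 and 5.55 in WT-labelled arrays, a difference of -0.07 ± 0.16 (SE, 95% interval -0.43 to 0.29). In both groups replicate 2 was the highest Apc value and replicate 3 the lowest, and the spread within each group exceeded the difference between them.

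Around these genes, Ctnnb1, which encodes beta-catenin itself, was lower in KO-labelled arrays at an unadjusted p under 0.05. It read 7.92, 7.81 and 7.95 in KO-labelled arrays, against 8.11, 8.33 and 8.28 in WT-labelled arrays, without overlap (-0.34 ± 0.12, SE, unadjusted p = 0.0212, adjusted p = 0.417). Leaving out any 1 array gave between -0.41 and -0.30. Ctnnb1 was the 1 call among 15 measured genes of the destruction complex and Wnt transduction (6.67%, against 10.3% of all genes), of which 9 were higher and 6 lower. Gsk3b, the kinase that follows casein kinase 1 alpha on beta-catenin, had 0.41 ± 0.19 (SE), and the co-receptor gene Lrp6 -0.43 ± 0.20 (SE), or -0.23 without WT replicate 2.

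Of 10 measured genes that beta-catenin is known to induce, 9 had a higher mean in KO-labelled arrays and Ccnd1 a lower one, with a list median of 0.29 against 0.00 over all genes. The median lay between 0.18 and 0.36 under every alternative setting tried. At an unadjusted p under 0.05, 1 of the 10 was called, a share near the 10.3% of all genes: Lgr5, a receptor for R-spondins, at 3.81, 3.46 and 4.06 in KO-labelled arrays against 3.43, 3.30 and 3.18 in WT-labelled arrays (0.47 ± 0.18, SE, adjusted p = 0.437), with a second probe set at -0.18 and a mean of both at 0.15. Znrf3, a membrane ubiquitin ligase that removes Wnt receptors, read 5.18, 5.36 and 5.23 in KO-labelled arrays, against 5.04, 4.83 and 4.90 in WT-labelled arrays (0.34 ± 0.15, SE). Notum, a secreted Wnt inhibitor, had 0.40 ± 0.20 (SE), or 0.24 without WT replicate 3. Of the 10, Lgr5, Notum and Nkd1 lay below percentile 40 of mean signal over all genes. In the casein kinase 1 family, the gamma members Csnk1g2 and Csnk1g3 had 0.32 ± 0.16 and 0.34 ± 0.19 (SE), Csnk1e had -0.07 ± 0.14 (SE), and 0 of 4 reached an unadjusted p under 0.05. Each leaned on single arrays, with Csnk1g2 at 0.19 without KO replicate 2, Csnk1g3 at 0.55 without KO replicate 1 and Csnk1e at -0.02 without WT replicate 1.

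Ctnna1 encodes alpha-catenin, which ties cadherin and beta-catenin to actin. It read 6.59, 6.39 and 6.12 in KO-labelled arrays, against 6.28, 6.57 and 6.50 in WT-labelled arrays. KO replicate 1 held the highest value and KO replicate 3 the lowest, so the KO values enclosed all WT values. The difference was -0.08 ± 0.17 (SE, 95% interval -0.47 to 0.30), and 0.04 without KO replicate 3. Of 12 measured partners, 5 were higher and 7 lower, with a median of -0.12 (-0.06 without KO replicate 2). Besides Ctnnb1, Ctnnd1, which encodes p120-catenin, had -0.35 ± 0.18 (SE), or -0.19 without WT replicate 2, and Afdn, which encodes the junction protein afadin, had -0.27 ± 0.16 (SE) without overlap between the groups, or -0.16 without WT replicate 1.

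Diaph1 encodes the formin mDia1, which nucleates and elongates actin filaments. It read 7.92, 7.76 and 7.94 in KO-labelled arrays, against 7.79, 8.05 and 8.05 in WT-labelled arrays. WT replicates 2 and 3 were above every KO value and WT replicate 1 was not, and the difference was -0.09 ± 0.13 (SE, 95% interval -0.39 to 0.21). Leaving out 1 array gave between -0.18, without WT replicate 1, and -0.04, without KO replicate 2.

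Ppp2ca encodes the alpha form of the catalytic subunit of protein phosphatase 2A, and its result depends on which probe set is read. The brightest probe set, which stood for the gene, read 9.90, 8.75 and 8.61 in KO-labelled arrays, against 8.91, 8.71 and 9.38 in WT-labelled arrays. KO replicate 1 and WT replicate 3 stood above the rest, and the difference of 0.09 ± 0.31 (SE, 95% interval -0.62 to 0.79) was the least precise of the 10. It was -0.32 without KO replicate 1 and 0.33 without KO replicate 3. The second probe set read 7.23, 7.15 and 6.83 in KO-labelled arrays, against 7.08, 7.39 and 7.42 in WT-labelled arrays (-0.23 ± 0.16, SE). The third read 6.07, 6.48 and 5.79 in KO-labelled arrays, against 6.90, 6.71 and 6.44 in WT-labelled arrays (-0.57 ± 0.21, SE, unadjusted p = 0.0233). On that probe set 2 of 3 KO values were below all WT values, and its 95% interval of -1.04 to -0.10 does include -1. The mean of the 3 probe sets had a difference of -0.24. A further probe set, annotated to more than 1 symbol, was left out.

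**Figure D3:**
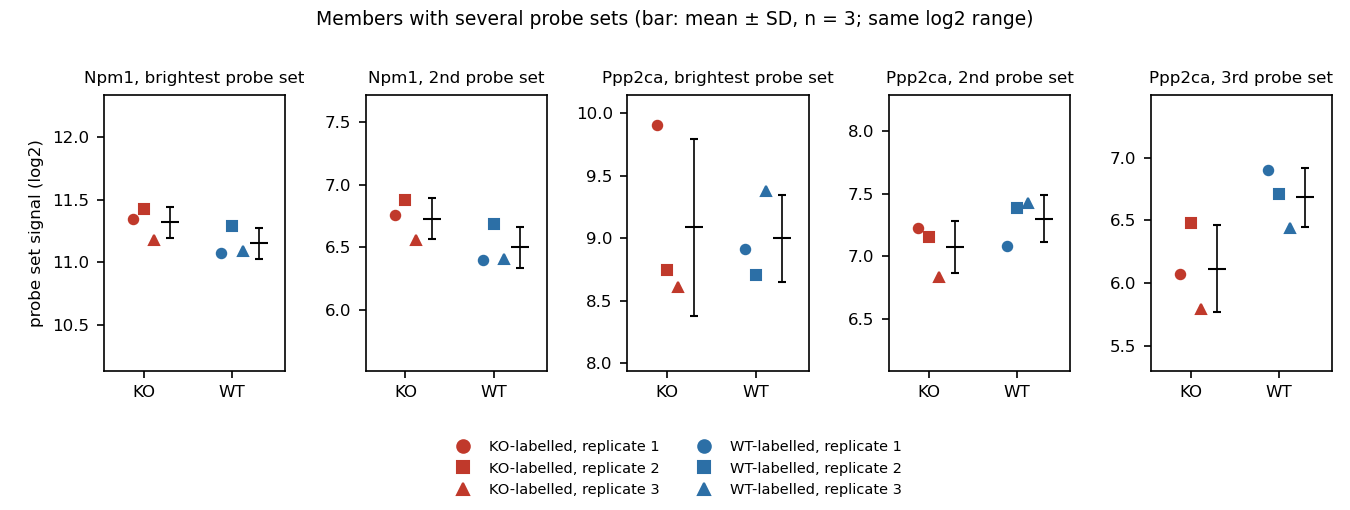
Probe set signal (log2) by array for the 2 probe sets of Npm1 and the 3 of Ppp2ca, KO-labelled arrays left and WT-labelled arrays right, with group mean and SD. The Npm1 probe sets order the arrays alike, while the Ppp2ca probe sets differ in direction, from 0.09 to -0.57.

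Of 20 other measured subunits and regulators of protein phosphatase 2A, 3 (15.0%) had an unadjusted p under 0.05, against 10.3% of all genes, 1 of them higher and 2 lower in KO-labelled arrays. Ppme1, the methylesterase that removes a methyl group from the tail of the catalytic subunit, read 6.68, 6.58 and 6.31 in KO-labelled arrays, against 7.25, 6.95 and 7.24 in WT-labelled arrays (-0.63 ± 0.16, SE, unadjusted p = 0.00359, adjusted p = 0.334). Lcmt1, the methyltransferase that adds it, read 6.78, 7.13 and 6.79 in KO-labelled arrays, against 6.11, 6.58 and 6.40 in WT-labelled arrays (0.54 ± 0.18, SE, unadjusted p = 0.0141, adjusted p = 0.384). The groups did not overlap for either gene, as for 16.1% of all genes. Ppp2cb, the beta form of the catalytic subunit, read 7.94, 8.16 and 8.22 in KO-labelled arrays, against 8.34, 8.50 and 8.36 in WT-labelled arrays (-0.30 ± 0.13, SE, unadjusted p = 0.0454, adjusted p = 0.479), and passed the unadjusted threshold in 8 of 15 alternative settings.

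**Figure D4:**
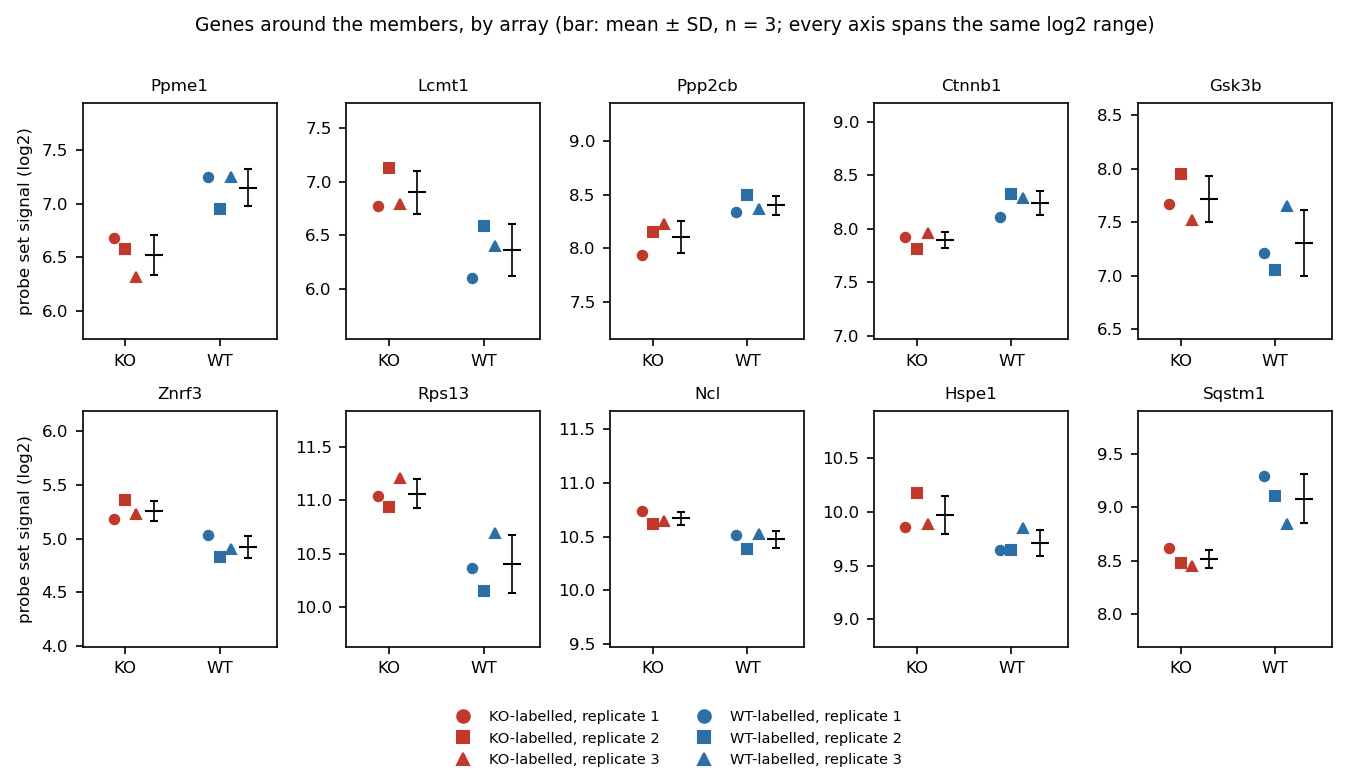
Probe set signal (log2) by array for 10 genes around the orthologs, KO-labelled arrays left and WT-labelled arrays right, with group mean and SD and an equal log2 span on every axis. The 10 are part of the genes named for the smallest p of their lists, so they were picked on their values. Ppme1, Ppp2cb, Ctnnb1 and Sqstm1 lie lower and Lcmt1, Znrf3, Rps13, Ncl and Hspe1 higher in all 3 KO-labelled arrays. Gsk3b overlaps. The groups did not overlap for 16.1% of all genes, and no gene passed an adjusted p of 0.05.

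Nr3c1 encodes the glucocorticoid receptor, a hormone-activated transcription factor, and had the largest estimate among the 10 orthologs. It read 7.47, 7.27 and 7.16 in KO-labelled arrays, against 7.65, 7.58 and 7.42 in WT-labelled arrays. Only KO replicate 1 and WT replicate 3 overlapped. The means were 7.30 ± 0.16 in KO-labelled and 7.55 ± 0.12 in WT-labelled arrays (SD, n = 3 each), a difference of -0.24 ± 0.14 (SE, 95% interval -0.57 to 0.08) or 84.4% of the WT-labelled level. Its unadjusted p in limma was 0.123, and leaving out any 1 array gave between -0.33 and -0.17. Of 11 measured genes that the receptor is known to induce, 8 had a higher and 3 a lower mean in KO-labelled arrays, with a median of 0.12 that was -0.00 without WT replicate 2. Dusp1, a phosphatase that switches off MAP kinases and is also a 5q ortholog, was the 1 call in that list (9.09%, against 10.3% of all genes). It read 11.04, 10.91 and 11.10 in KO-labelled arrays, against 10.73, 10.96 and 10.57 in WT-labelled arrays (0.26 ± 0.11, SE, unadjusted p = 0.0374), or 0.17 without WT replicate 3. Errfi1 had 0.38 ± 0.22 (SE), or 0.21 without KO replicate 3, and Zbtb16 -0.32 ± 0.22 (SE), or -0.16 without WT replicate 1. Of 7 measured chaperones that keep the receptor ready for hormone, 6 were higher and 0 reached an unadjusted p under 0.05, with Hsp90aa1 at 0.24 ± 0.12, Hspa8 at 0.16 ± 0.07 and Ptges3 at 0.15 ± 0.10 (SE). Hspa8 came to 0.047 after cyclic loess, and Hspa8 and Ptges3 to 0.061 and 0.057 after quantile normalization.

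Sparc encodes a secreted matrix-binding protein made mainly by stromal cells and megakaryocytes. Its probe set was dim, at percentile 30.96 of mean signal over all genes, and read 3.55, 3.29 and 3.25 in KO-labelled arrays, against 3.82, 3.31 and 3.52 in WT-labelled arrays. The difference was -0.19 ± 0.18 (SE, 95% interval -0.58 to 0.21), or -0.05 without WT replicate 1. The mean level over 10 stromal and endothelial markers was 3.71 to 3.82 in KO-labelled arrays and 3.84 to 3.90 in WT-labelled arrays. Of these markers 8 of 10 were lower, and 1 of them, Vcam1, had an unadjusted p under 0.05 (10%, against 10.3% of all genes). Vcam1, which is also a macrophage marker, had the largest difference, -0.74, and the gap between these ranges rests in large part on it. The other stromal and endothelial markers lay between -0.20 (Tek) and 0.28 (Cdh5). The mean over 7 megakaryocyte markers was 6.08 to 6.23 in KO-labelled and 6.15 to 6.31 in WT-labelled arrays, with 4 markers higher, 3 lower, a median difference of 0.09 and 2 lower at an unadjusted p under 0.05, against 5.51% of all genes. The part of such cells in the Sparc value was not tested, and in bulk RNA fewer cells of a type and less RNA per cell cannot be told apart. The stromal markers Lepr and Kitl lay at 2.38 and 2.61 in KO-labelled and 2.51 and 2.69 in WT-labelled arrays, near the bottom of the range of the arrays. Of 12 relatives of SPARC and marrow stroma genes, 6 were higher and 6 lower. The 1 call (8.33%, against 10.3% of all genes) was the proteoglycan gene Spock2, at 0.43 ± 0.18 (SE, unadjusted p = 0.0383), or 0.26 without WT replicate 1. Spock1 and Smoc2 had 0.31 ± 0.14 and 0.39 ± 0.19 (SE), or 0.27 for Smoc2 without WT replicate 2. Both were dim, at percentiles 25.5 and 31.7 of mean signal over all genes.

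In the RefSeq gene table of GRCm38.p6, 7 of the 10 orthologs lie on mouse chromosome 18 and 3, Npm1, Ppp2ca and Sparc, on chromosome 11, whereas Tifab lies on chromosome 13. All 7 on chromosome 18 had a lower mean in KO-labelled arrays, and 1 of 3 on chromosome 11 did. Over all 518 measured genes of chromosome 18 the share lower in KO-labelled arrays was 48.5% and the median difference 0.01, so the chromosome as a whole did not lean that way. KO replicate 3 held the lowest of the 6 values for 6 of the 10 orthologs. Its median deviation from the 6-array mean was -0.20 over the orthologs and -0.02 over the 7289 genes at least as bright as Apc. Without KO replicate 3, 6 of 10 orthologs were lower in KO-labelled arrays, with a median of -0.05.

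Further 5q neighbours were examined as 3 lists, for human 5q31, 5q32-q33 and 5q35. Whether a given 5q deletion removes all 3 stretches was not tested. Together they held 159 measured genes, of which 87 were higher and 72 lower in KO-labelled arrays, with a median of 0.02. An unadjusted p under 0.05 was found for 8 of them (5.03%, against 10.3% of all genes), 4 higher and 4 lower, and the groups did not overlap for 25 (15.7%, against 16.1%). No adjusted p was below 0.334. The medians of the 3 lists, 0.03, 0.05 and -0.06, turned to -0.02 and -0.01 for the first and second after median centring, and to 0.00 for 5q35 without KO replicate 1. The 5q31 list had 1 call of 65, Reep2, an endoplasmic reticulum-shaping protein gene, at 0.58 ± 0.19 (SE). The 5q32-q33 list had 3 of 47: Fat2 at 0.63 ± 0.20, Htr4 at 0.57 ± 0.22 and the sulfatase gene Arsi at -0.49 ± 0.17 (SE), or 0.34 for Htr4 without KO replicate 1. Fat2 and Htr4 were dim, at 3.68 and 3.38 in KO-labelled and 3.04 and 2.81 in WT-labelled arrays.

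The 5q35 list had 4 of 47 at an unadjusted p under 0.05 (8.51%, against 10.3% of all genes), among them 3 that were lower and Dusp1, which was higher. Sqstm1, which encodes the TRAF6-binding scaffold p62, read 8.62, 8.48 and 8.45 in KO-labelled arrays, against 9.29, 9.10 and 8.84 in WT-labelled arrays (-0.56 ± 0.14, SE, adjusted p = 0.334). Cpeb4, a regulator of mRNA translation, read 5.10, 5.06 and 4.62 in KO-labelled arrays, against 6.002, 5.41 and 5.53 in WT-labelled arrays (-0.72 ± 0.21, SE, adjusted p = 0.356). Ltc4s, the enzyme that makes leukotriene C4, had -0.51 ± 0.17 (SE, adjusted p = 0.383). Each of these 3 genes had no overlap between the groups, as was found for 16.1% of all genes.

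The p53 targets, which respond when ribosome assembly fails, gave 8 higher and 5 lower of 13 measured. The 1 call (7.69%, against 10.3% of all genes) was Cdkn1a, the cell cycle inhibitor p21. It read 8.71, 8.12 and 8.44 in KO-labelled arrays, against 9.06, 8.60 and 8.89 in WT-labelled arrays (-0.42 ± 0.18, SE, unadjusted p = 0.0380, adjusted p = 0.468), or -0.27 without KO replicate 2. Ccng1 and Pmaip1, both also p53-induced, had 0.44 ± 0.21 and 0.45 ± 0.24 (SE), or 0.66 for Ccng1 without WT replicate 3 and 0.17 for Pmaip1 without WT replicate 1.

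**Figure D5:**
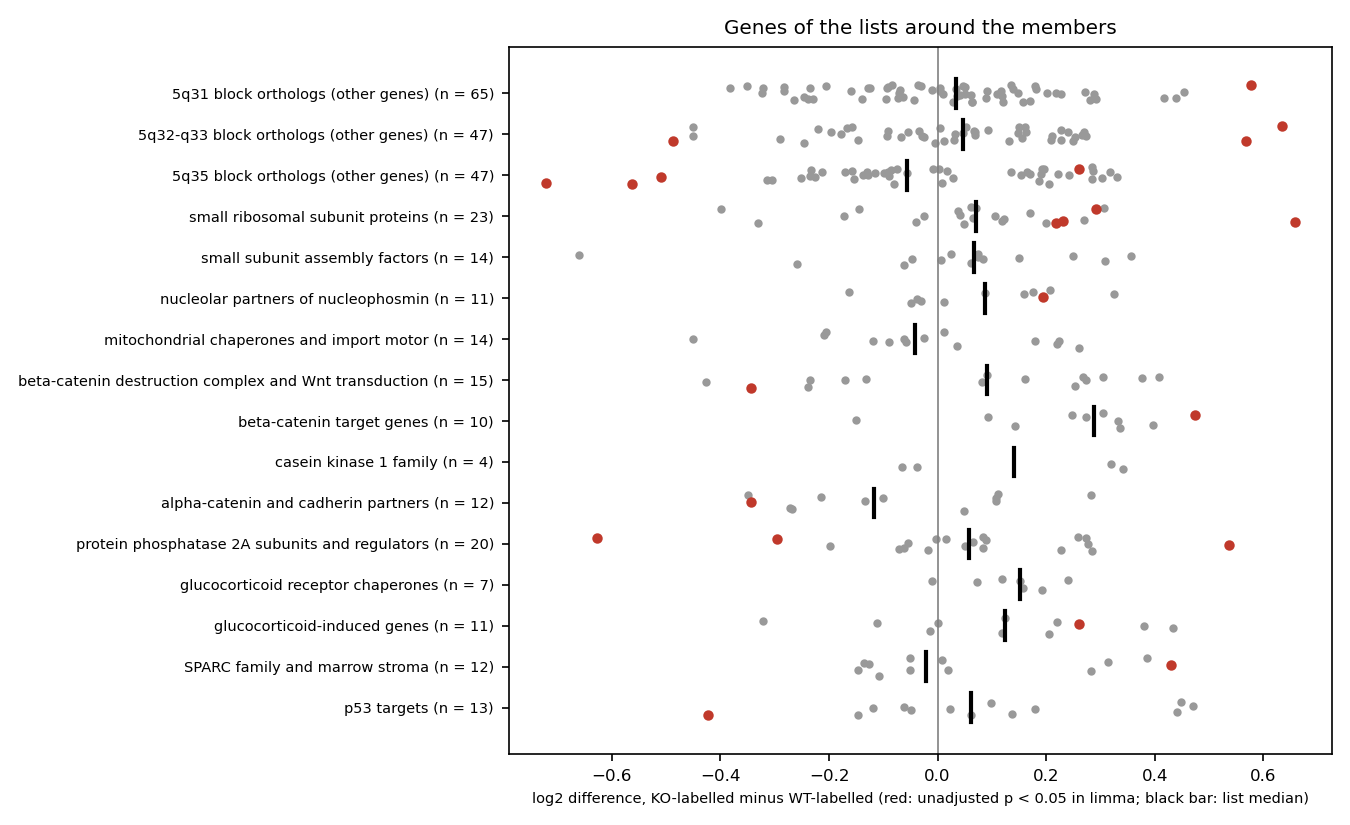
Log2 difference, KO-labelled minus WT-labelled, of each measured gene in the 3 lists of 5q neighbours and the lists around the orthologs (grey), with genes at an unadjusted p under 0.05 in red and the list median as a black bar. The 5q lists centre near 0, at 0.03, 0.05 and -0.06, and the beta-catenin target genes have a median of 0.29.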

How the data were processed

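RNA of LSK cells was measured in 3 Tifab KO-labelled and 3 Tifab WT-labelled mice on 1 array each. The authors deposited log2 probe set values, made with Affymetrix Expression Console per the submitters' processing notes. No source used here gives the version, background correction, normalization or summary method. Of 41345 probe sets, 23521 had 1 gene symbol in the platform annotation, 1814 had several and 16010 none, and only the first kind was used, 1 probe set a gene, which left 22180 genes. The labels call the samples separate mice, and p-values measure the spread between these 3 arrays a group.

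KO-labelled and WT-labelled arrays were compared with limma 3.58.1 in R 4.3.3 (lmFit, eBayes with an intensity trend, two-sided, Benjamini-Hochberg over all genes, threshold 0.05), after a run on simulated data. An exact permutation test of 3 against 3 cannot go below 0.1. Lists are described by counts and medians, with no set test. Named are the 10 orthologs, Tifab and, of each list, up to 3 genes with the smallest p. Ccnd1, Nkd1, Prg2, Iglv1 and the cell type markers fall outside this rule and were chosen after their values were seen. The members and lists were chosen with earlier results of these data known. Unmatched list genes were not analysed here, and 1 list of genes around Diaph1 is not reported here. Alternatives were no trend, robust moderation, array weights, quantile normalization, median centring, cyclic loess, no genes under percentile 40 of signal, averaging all probe sets of a gene, a block for replicate number, and each array left out. Deviations of same-numbered arrays from their group means correlated at 0.02, -0.03 and -0.09, and the labels name no shared origin.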

Additional observations from a re-analysis of the deposited data

How the results depend on the processing

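Of the 10 orthologs, 0 passed an adjusted p of 0.05 under any of the 15 alternatives, and the 95% interval of every ortholog tested ended above -1 in each (lowest bound -0.86, Ppp2ca without WT replicate 2). With the replicate block, 0 genes passed an adjusted p of 0.05. An unadjusted p under 0.05 was then found for 2119 genes, 0 orthologs and 8 genes of the 5q lists. The numbers share no stated origin, so this is no paired result. Leaving out dim genes lowered the genes with an unadjusted p under 0.05 to 1218 by testing 13308. Median centring and cyclic loess each left 1 of 10 orthologs, Hspa9, without overlap, against 17.6% and 15.1% of all genes under these settings. Median centring moved the median of all genes to -0.05. Leaving out 1 array gave 0 to 1 genes past the adjusted threshold (Prg2 without KO replicate 2, Iglv1 without WT replicate 3), 1630 to 2713 genes with an unadjusted p under 0.05, 0 to 1 orthologs (Npm1), 0 to 3 orthologs without overlap, and 6 to 13 genes of the 5q lists. The groups then hold 2 and 3 arrays, and 24.7% to 30.1% of all genes do not overlap.

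Estimates near 0 changed sign when 1 array was left out. Csnk1a1 ranged over -0.12 to 0.015, with 0.00 without WT replicate 1. Apc ranged over -0.14 to 0.017, Ctnna1 over -0.20 to 0.040 and Tifab over -0.25 to 0.017. Ppp2ca ranged over -0.32 to 0.33, and was -0.06 without WT replicate 2. It was -0.24 as the mean of its probe sets and -0.23 and -0.57 on its other probe sets. With the mean of probe sets Rps3a1 had -0.085 and Rrp7a 0.15, while leaving out 1 array gave Rrp7a between -1.04 and -0.10. The cause of these changes was not tested. The number of arrays limits the precision.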

Other observations

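Among markers of marrow macrophages, 3 of 9 had an unadjusted p under 0.05 (33.3%, against 10.3% of all genes): Vcam1, which is also the stromal call, at -0.74 ± 0.23 (SE), C1qa and C1qb. The C1q genes, which encode subunits of 1 complement complex, had differences of opposite sign. C1qa read 5.16, 5.53 and 5.66 in KO-labelled arrays, against 4.97, 4.91 and 4.91 in WT-labelled arrays (0.52 ± 0.17, SE). C1qb read 4.65, 4.78 and 4.84 in KO-labelled arrays, against 5.08, 5.40 and 5.31 in WT-labelled arrays (-0.51 ± 0.16, SE). C1qc had -0.20 ± 0.25 (SE). These genes were chosen after their values were seen, and none passed an adjusted p of 0.05. The mean level over the 9 macrophage markers was 4.90 to 5.08 in KO-labelled arrays and 4.87 to 5.06 in WT-labelled arrays. Of the 9, 5 were higher and 4 lower, with a median difference of 0.05. Among the higher ones, Adgre1, Cd68 and Csf1r had 0.35, 0.34 and 0.24.

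Among megakaryocyte markers, 2 of 7 were lower at an unadjusted p under 0.05 (28.6%, against 5.51% of all genes): the platelet glycoprotein gene Gp5 at -0.52 ± 0.15 and Treml1 at -0.45 ± 0.19 (SE), while Ppbp, Pf4, Itga2b and Gp9 had 0.29, 0.12, 0.12 and 0.09.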
